A study of Ovis aries with 49 samples.

Results

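The subject is a set of 323 single-nucleotide polymorphisms (SNPs) of the sheep (Ovis aries) at which every one of 15 fetuses was heterozygous. They were chosen from genotypes and from being present in a deposited list of allele counts. Such lists hold only SNPs with most reads on 1 base. Each fetus has a deposited list of the SNPs at which it was heterozygous and its father homozygous, so that the base passed on by the father is known. Over the 15 fetuses these lists hold 146487 distinct SNPs. Of these, 415 on the autosomes were in the lists of all 15 fetuses, and 323 of the 415 were also in at least 1 of the deposited fetal lists of allele counts. The other 92 were in none. The 323 SNPs lie in 277 genes, 240 of which hold 1, 30 hold 2 and 6 hold 3, while MOB1A, a kinase activator of the Hippo pathway, holds 5. They make up 3611 of the 39974 entries of the allele-count lists, or 9.03%, an entry being 1 SNP in 1 library. Below they are called the shared SNPs, and all others the other SNPs.

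The mothers were Western white-faced ewes and the fathers 4 Dorset rams. From gestation day 30 restricted ewes received 60%, overfed ewes 140% and control ewes 100% of the recommended energy. At day 135, RNA of brain, kidney and lung was sequenced from 4 restricted, 4 overfed and 7 control fetuses (45 libraries), and the DNA of the 4 rams was sequenced from blood. Every fetus is thus a cross of the same breeds in the same direction, and no reciprocal cross was among the samples. Of the fetuses, 2 were of ram 1, 1 of ram 2, 5 of ram 3 and 7 of ram 4. The labels name 3 sets of control twins, while the numbers in the sample descriptions group 3 control fetuses under 1 number and 2 under another.

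A messenger RNA is normally made from both copies of a gene. In imprinted genes the copy of 1 parent is silenced by DNA methylation laid down in the germ line, and in many other genes a sequence difference near the gene makes 1 copy more active. RNA-seq reads that cover a heterozygous SNP can be assigned to the copy they came from. Such counts also depend on how well reads with each base align to the genome, on genotypes and on base changes made in the RNA itself, such as the A-to-I editing by ADAR enzymes that is read as A-to-G.

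The measured quantity is the number of reads on the paternal and on the maternal base of a SNP, estimated counts that the authors averaged over 2 alignments. The paternal share is the percentage of these reads on the father's base. All listed entries had at least 20.5 reads and at least 70.02% of them on 1 base, so that every share lies below 30% (the maternal side) or above 70% (the paternal side). A SNP with balanced reads is not listed, and an entry says nothing of fetuses or tissues in which the SNP is missing. Depth was therefore taken from the lists. They summed to 6530.5 reads in the shallowest library, a control kidney, and 194732 in the deepest, an overfed lung. The shared SNPs had a median of 37 reads per entry in brain, 40 in kidney and 47.5 in lung. Among the 45 libraries, 5 listed fewer than 35 shared SNPs: 1 control brain with 18, and control, restricted and 2 overfed kidneys with 13, 16, 24 and 31. Kidney markers were listed in kidney for 7 of 12 genes, brain markers in brain for 3 of 11 and lung markers in lung for 1 of 9, the phosphate transporter gene SLC34A2. Brain markers were also listed in kidney and in lung, for 2 genes each (MAP2 with SNAP25 and MAP2 with STMN2), and kidney markers in lung for 3 (AQP1, SLC12A1 and SLC12A3). Endothelium markers were listed for 3 of 4 genes in each tissue. Blood and muscle markers were absent from every list. Only 2 of 4 blood and 1 of 4 muscle markers had an informative SNP, heterozygous in a fetus with a homozygous father. As balanced SNPs are also not listed, this absence says nothing of their expression.

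SNPs heterozygous in every fetus were listed far more often than others, while the shared SNPs are listed by the rule that chose them. Of the SNPs heterozygous in all 15 fetuses 77.8% were listed somewhere, against 61.1% of those heterozygous in 14 fetuses, the SNPs just outside the rule, and 4.24% of those heterozygous in 1. A SNP heterozygous in more fetuses has more chances to be listed, so the share of possible entries was also counted. It was 19.3% of 18675 possible entries for SNPs heterozygous in 15 fetuses, 10.97% for those in 14, 6.90% for those in 13 and 1.64% for those in 1. Within each of the 45 libraries the listed share was higher for the SNPs heterozygous in all fetuses (3.13% to 33.5% of the 415) than for other informative SNPs (0.557% to 5.13%). The side moved with the same count. The maternal side held 70.9% of the entries of shared SNPs, 76.9% for SNPs heterozygous in 14 fetuses, 68.6% for those in 13, and 48.3% to 52.7% for those in 1 to 8. These are counts over entries that share fetuses and libraries, and no test was run on them.

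**Figure D1:**
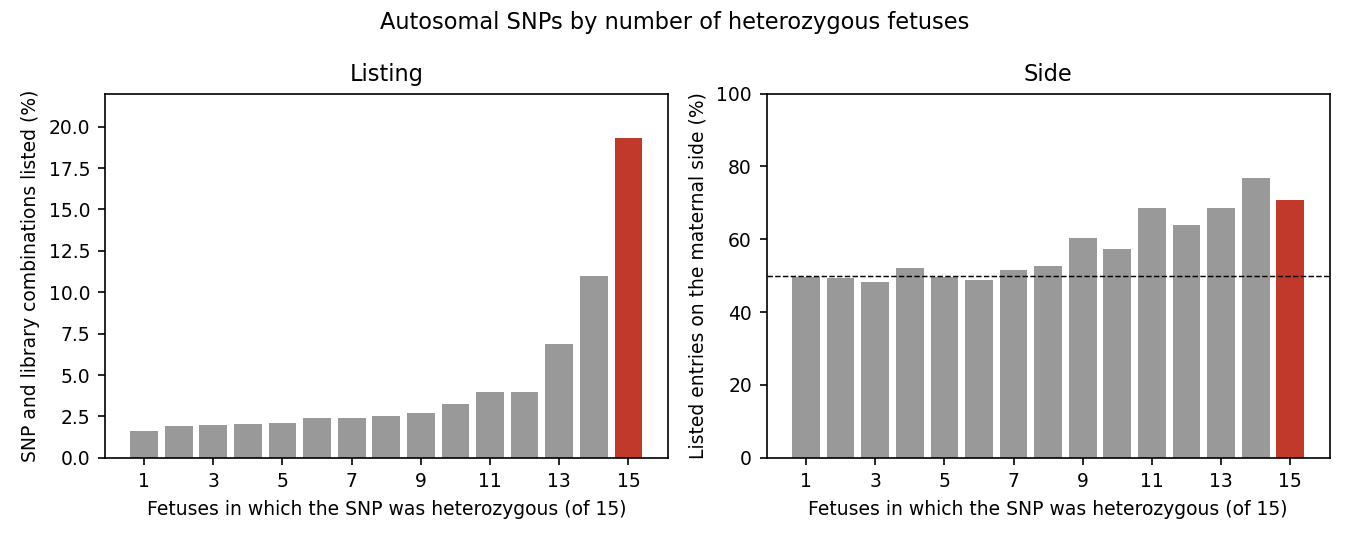
Left, percentage of possible SNP and library combinations that were listed, and right, percentage of the listed entries on the maternal side, by the number of fetuses (1 to 15) in which an autosomal SNP was heterozygous. The bars for all 15 fetuses (red) stand at 19.3% and 70.9%, those for 1 fetus at 1.64% and 49.7%, and the dashed line marks 50%.

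Over all entries, those of shared SNPs were more often maternal than those of other SNPs in each tissue, but among SNPs listed in many fetuses this was not so in kidney and lung. In brain 860 of 1070 entries of shared SNPs lay on the maternal side, or 80.4%, against 55.3% of the entries of other SNPs. In kidney it was 750 of 1103, or 68.0%, against 55.2% for other SNPs. In lung it was 950 of 1438, or 66.1%, against 54.3%. Most other SNPs were listed rarely. Among SNPs listed in at least 8 fetuses of a tissue, 85% of 60 shared and 82.6% of 69 other SNPs had a maternal mean share in brain. The same figures were 64.2% of 53 and 67.7% of 99 in kidney, and 65.4% of 78 and 74.1% of 193 in lung. The maternal percentage of the shared SNPs was thus near that of other SNPs listed as often in brain, and below it in kidney and lung. These percentages were not tested. Per library, over all entries, the maternal percentage was higher for shared than for other SNPs in 15 of 15 brains, 15 of 15 kidneys and 14 of 15 lungs. It was 72.2% to 85.9% for shared and 50.4% to 60.1% for other SNPs in brain, which do not overlap. In kidney it was 56.3% to 75.8% for shared and 41.1% to 58.2% for other SNPs, and in lung 53.7% to 80.5% and 43.7% to 59.2%, with overlap in both. The median reads per entry were also higher for shared SNPs in 45 of 45 libraries, 29 to 77.5 against 27 to 44.5, and the part of this difference in the sides was not tested. Entries close to the limit of the filter, with under 75% of reads on 1 base, were rarer among shared SNPs in 44 of 45 libraries, at 7.69% to 46.6% against 36.5% to 55.7%.

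**Figure D2:**
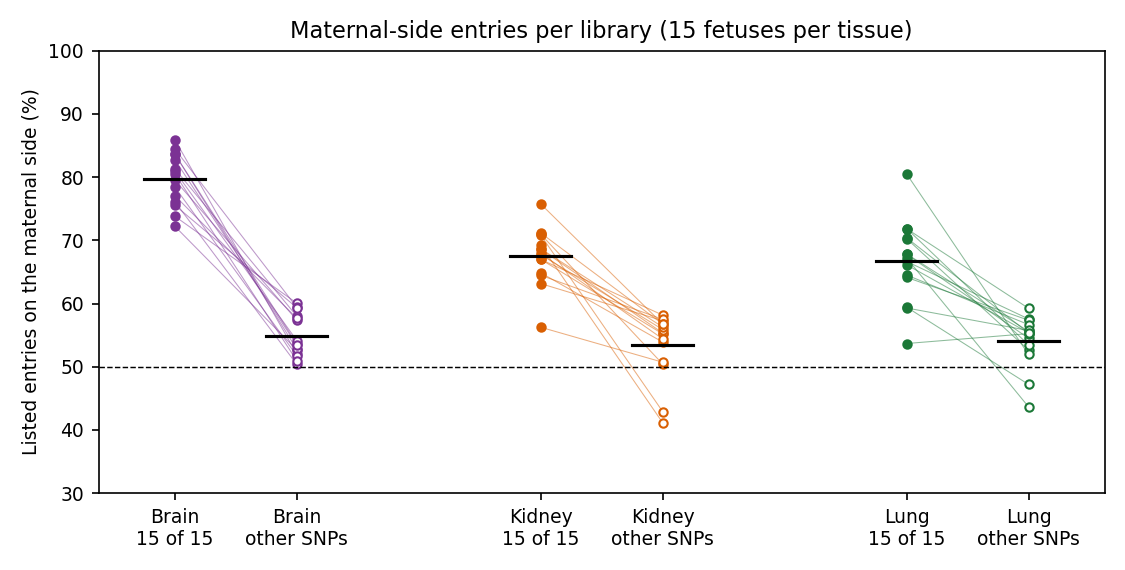
Percentage of listed entries on the maternal side in each library, for the SNPs heterozygous in 15 of 15 fetuses (filled points) and for other autosomal SNPs (open points), joined within a library. The brain points of the shared SNPs, from 72.2% to 85.9%, lie wholly above those of the other SNPs, from 50.4% to 60.1%. Black bars are means over 15 fetuses.

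At most of these SNPs parent and base cannot be told apart. At 311 of the 323 every ram carried the reference base, so that the paternal base was the reference base and the maternal base the alternative in every fetus. At 10 every ram carried the alternative base, and at 2 both were seen. The percentage with a paternal reference base only was 96.3% for shared SNPs, 78.3% for the 92 unlisted SNPs heterozygous in all fetuses and 66.4% for the other autosomal SNPs. The 2 SNPs with both bases lie in LOC105603470 and were listed in 7 kidney entries, in all of which the father carried the alternative base, at paternal shares of 71.1% to 75%. The alternative base was the higher one in 71.5% of the entries of shared SNPs. Where every ram carried the alternative base 26.7% of 30 entries were maternal, so that the alternative base was higher in 73.3%, against 71.4% maternal of 3574 entries where every ram carried the reference base. Of the 30 entries 17 were of 1 SNP, in LOC101105123, and 16 of these 17 were paternal, of 22 paternal entries in all. The 73.3% thus rests mostly on this SNP. Of the 10 SNPs 4 were listed on the maternal side only and 3 on the paternal side only. Whether the side follows the base or the parent was not tested.

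The base changes of the shared SNPs were of another make-up than those of the other SNPs. Transversions, which exchange a purine for a pyrimidine, were 181 of 323, or 56.04%, against 22.8% of the 143609 other autosomal SNPs of the ram lists. They were 45.7% of the listed SNPs heterozygous in 14 fetuses and 46.7% of the 92 unlisted ones. Changes between C and G made up 24.8% of the shared and 7.23% of the other SNPs, and G-to-T or C-to-A changes 21.98% and 6.66%. T-to-C or A-to-G changes were 7.74% of the shared and 31.9% of the other SNPs. The reference base was G or C at 83.0% of the shared and 59.1% of the other SNPs. These shares were not tested. The side of the reads also differed with the change. In the 71 SNPs with a G-to-T or C-to-A change 91.4% of 922 entries were maternal, in the 117 with a C-to-T or G-to-A change 66.9% of 1325, in the 80 with a change between C and G 67.6% of 904, and in the 25 with a T-to-C or A-to-G change 24.9% of 173.

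Some shared SNPs lie next to each other. There were 21 pairs of neighbours within 150 bp, which involve 39 of the 323, and 6 of these pairs were on adjacent bases. In the 171 instances in which both SNPs of a pair were listed in 1 library they were on the same side 171 times. In MAP4K4, a stress kinase gene, 2 SNPs 2 bp apart were both listed in 27 libraries and differed by a median of 0.457 points in paternal share. In LOC106991149, SNPs on adjacent bases were both listed in 25 libraries and differed by a median of 0.122 points. In THRA, the gene of thyroid hormone receptor alpha, 2 SNPs 3 bp apart were both listed in 25 libraries and differed by a median of 15.2 points, although on the same side each time. Where both were listed in 1 library, neighbours within 150 bp therefore cannot be counted as separate measurements. This covers 17 of the 21 pairs, as the others had no library in common.

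Other SNPs of the same gene gave a mixed picture. Of the 277 genes 108 had no other listed SNP. Where a shared SNP and another SNP of its gene were listed in the same library, which made 853 pairs, 73.3% were on the same side. Among pairs of other SNPs of 1 gene and library, 17057 pairs in 2015 genes, the figure was 91.9%. Those pairs were not split by distance, so the 2 figures are not matched for it. For a shared SNP and a second SNP the figure was 91.7% of 72 pairs within 150 bp, and 72.5% of 560 pairs beyond 1000 bp. By tissue the shared SNPs were on the same side as the second SNP in 79.4% of pairs in brain, 78.0% in kidney and 67.5% in lung. In HNRNPM all 17 pairs were on the same side and in RBM5 all 11, with only 1 second SNP in each gene. In SON, a splicing factor gene with 2 shared SNPs, it was 34 of 34 for the first and 14 of 14 for the second, with 5 other SNPs. In COPA, which encodes a coat protein of transport vesicles, 3 of 7 pairs were on the same side for 1 shared SNP and 0 of 8 for the other. In MAP2 it was 0 of 6 pairs, with 5 other SNPs, and in UBE2D2 1 of 4, with 2 other SNPs. Pairs of 1 gene and pairs of 1 fetus are not independent, and no test was run on them.

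The side of a shared SNP was mostly fixed. Of the 323, 294 were listed on 1 side only, 184 maternal and 110 paternal, and 29 on both, although 53 were listed in a single library. Among the 136 listed in at least 10 libraries 127 kept to 1 side, 94 maternal and 33 paternal, against 391 of 432 other SNPs listed as often. A shared SNP was listed in a median of 7 of 45 libraries. In brain 193 shared SNPs were listed, in kidney 224 and in lung 266. All 3 tissues listed 134 of them, and 125 of these were on the same side by the mean share of each tissue.

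Bias towards 1 parent was tested per SNP with limma on the empirical logit of the share (natural log scale, 0.5 read added to either count) in SNPs listed in at least 3 fetuses of a tissue. Since only unequal entries are listed, a call says that the side was the same in most or all listed fetuses, not that the share is large. In brain 114 of 114 shared SNPs were called at an adjusted p under 0.05, 23 paternal and 91 maternal, beside a background of 94.9% of the 683 SNPs tested. In kidney 144 of 145 were called, 46 paternal and 98 maternal, beside 92.6% of 878. In lung 165 of 167 were called, 53 paternal and 112 maternal, beside 92.9% of 1319. Shared SNPs are among the SNPs of each background. The share called is thus near the background in each tissue. Over all SNPs the brain had 418 maternal calls of 648, the kidney 512 of 813 and the lung 729 of 1225. Of SNPs listed in at least 6 fetuses, 65 of the 78 shared SNPs called were maternal in brain, against 177 of 234 over all SNPs. The counts were 61 of 86 against 201 of 287 in kidney and 79 of 111 against 325 of 468 in lung, which are nearly equal shares. The SNPs not called were those of MARCH7, a ubiquitin ligase gene, in kidney (adjusted p = 0.167, n = 4), and LOC101105123 (adjusted p = 0.248, n = 4) and ST6GALNAC2, a sialyltransferase gene (adjusted p = 0.818, n = 3), in lung. In each of them 1 fetus was on the other side. For MARCH7 the paternal share was 70.4% in an overfed kidney, against 18.8%, 20.97% and 29.3% in 3 control kidneys.

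The SNPs listed in 30 or more libraries were 24 SNPs of 23 genes, 5 on the paternal and 19 on the maternal side. Of all shared SNPs 3 were listed in all 45 libraries, those of CLK1 and RBM5 among them. That of RPL9 was listed in 44, HNRNPM and RAB24 in 43, HNRNPU in 42, THRA in 41, CPSF3L, PRRC2A and RAB14 in 40 and PRKCSH in 39. Positions below are those of the deposited lists, counted from the start of the chromosome's RefSeq sequence. They are in a build not given in the sources used here, and no annotation of exons was used. A change is written as the reference base, the position and the alternative base.

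CLK1 encodes a kinase of SR splicing factors. Its SNP on chromosome 2 (C202173743A) had 9720 reads over the 45 libraries. The paternal share was lowest at 8.61%, with a median of 19.5% and a highest value of 28.8%, over 15 brains. It was 7.14%, 19.8% and 25.1% in the same order over 15 kidneys, and 15.6%, 20.6% and 26.2% over 15 lungs. The means were 19.3% ± 5.69 (SD, n = 15) in brain, 19.3% ± 5.12 in kidney and 20.8% ± 3.07 in lung, and the ranges of the tissues overlapped.

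RBM5, an RNA-binding regulator of splicing, carries its SNP on chromosome 19 (C50189077G), with 5937.5 reads. Its lowest, median and highest paternal shares were 9.52%, 12.2% and 22.1% over the brains, 13.5%, 16.99% and 27.2% over the kidneys and 9.05%, 17.2% and 23.1% over the lungs. The mean was 13.1% ± 3.25 in brain, against 17.1% ± 3.20 in kidney and 16.9% ± 3.31 in lung (SD, n = 15 each). The brain was lower by 0.29 on the natural log scale than the kidney (adjusted p = 0.0164) and by 0.26 than the lung (adjusted p = 0.0309), in a limma fit. With the fetus as a block these became adjusted p = 0.0559 and 0.0791, and with 2 reads added to each allele 0.0639 and 0.168.

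RPL9 encodes a protein of the large ribosomal subunit. At its SNP on chromosome 6 (G58470900C) the paternal share ran from 88.3% to 100% in 14 brains, from 92.5% to 100% in 15 kidneys and from 90.8% to 100% in 15 lungs. The means were 92.96% ± 3.44 (SD), 95.2% ± 2.13 and 95.5% ± 2.54. Ribosomal protein genes have many processed copies in mammalian genomes, and whether reads of such copies were counted at this SNP was not tested. THRA was paternal as well, with means of 86.5% ± 7.66 (SD) over 14 brains, 94.1% ± 2.72 over 12 kidneys and 95.2% ± 2.45 over 15 lungs, and its brains reached down to 72.3%, below every kidney and lung. In human and mouse the antisense gene NR1D1 overlaps the end of THRA, and without strand the reads of overlapping genes cannot be told apart.

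HNRNPM, HNRNPU, RAB24, CPSF3L and PRKCSH were maternal in every library that listed them. HNRNPM and HNRNPU, which encode proteins that bind nuclear pre-mRNA, differed in their order over tissues. HNRNPM had a mean of 14.9% ± 4.68 (SD) over 15 brains, against 22.4% ± 3.69 over 14 kidneys and 23.3% ± 3.64 over 14 lungs. HNRNPU had 21.5% ± 4.00 over 13 brains, against 19.02% ± 6.42 over 14 kidneys and 15.4% ± 4.10 over 15 lungs. RAB24, a small GTPase of autophagy, had 14.3% ± 3.48, 15.7% ± 4.66 and 17.9% ± 3.35, with 14, 14 and 15 fetuses. CPSF3L, a subunit of the Integrator complex, had 15.9% ± 5.96, 16.1% ± 3.87 and 20.6% ± 3.802, with 14, 11 and 15. PRKCSH, the beta subunit of glucosidase II, had 20.1% ± 3.82, 17.6% ± 4.44 and 17.5% ± 5.53, with 10, 14 and 15.

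**Figure D3:**
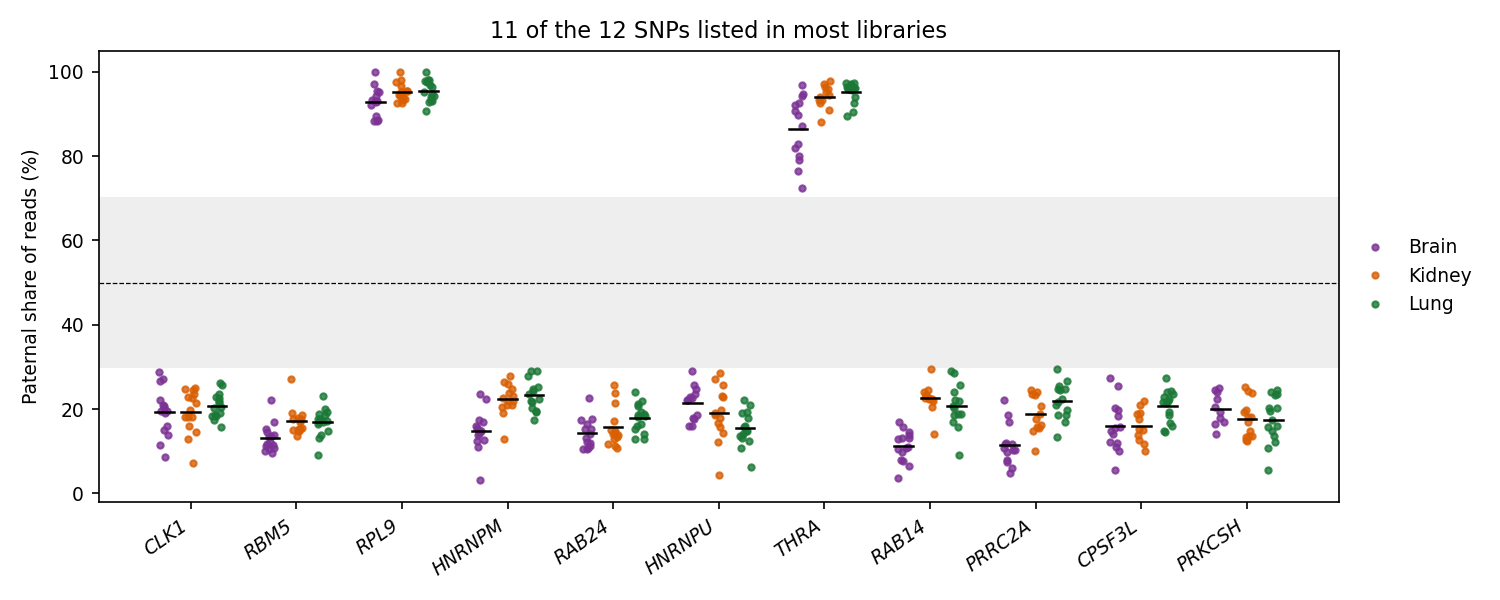
Paternal share of reads, in percent, at 11 of the 12 shared SNPs listed in most libraries, named by gene, in brain, kidney and lung. Each point is 1 fetus, black bars are means, and the grey band from 30% to 70% holds no points because such entries are not listed. RPL9 and THRA lie above the band and the other genes below it.

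Between fetuses the share of a shared SNP had an SD of a few points, within the limits that the filter sets on each side. For SNPs listed in at least 8 fetuses of a tissue the SD of the paternal share had a median of 5.05 points for shared and 4.74 for other SNPs in brain. The same medians were 4.31 and 4.56 points in kidney, and 4.10 and 4.61 points in lung. The highest SD was 7.66, 7.20 and 7.38 points for shared SNPs, and 50.1, 24.5 and 50.1 for other SNPs, in brain, kidney and lung. A high SD arises where fetuses lie on both sides. The extremes of the mean share within a tissue, among SNPs of at least 8 fetuses, included GSK3A, a kinase of glycogen metabolism, at 7.86% ± 5.76 (SD, n = 11) in brain. In lung the highest were RPL9, THRA and JAK1, a cytokine receptor kinase, at 94.5% ± 3.04 (n = 10). ASAH1, the acid ceramidase of lysosomes, was among the lowest in kidney at 15.6% ± 4.77 (n = 10), and TM9SF1, a membrane protein, in lung at 16.3% ± 7.32 (n = 11). JAK1 was listed in no brain and no kidney.

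Brain shares at the shared SNPs were more often lower than those of kidney or lung, as they were over all SNPs tested. In 1 limma fit over all 45 libraries, 23 of 78 shared SNPs with at least 3 fetuses in both tissues differed between brain and kidney, 2 higher and 21 lower in brain. The background was 19.2% of the 406 SNPs tested, 10 higher and 68 lower in brain, and 29.5% of the shared SNPs were called. With the fetus as a block 14 of 74 were called, all 14 among the 23, which is 18.9% beside 16% of 393 SNPs in that fit and near the background. Between brain and lung 27 of 76 differed, 3 higher and 24 lower in brain, beside 26.8% of 422, 27 higher and 86 lower, so 35.5% of the shared SNPs were called. With the block 19 of 71 were called, or 26.8%, beside 23.6% of 411. The median difference was -0.24 natural log units for brain against kidney and -0.30 for brain against lung over the shared SNPs, and -0.13 and -0.22 over all SNPs tested. Between kidney and lung 0 of 117 shared SNPs were called by limma, with 9 at an unadjusted p under 0.05 and a smallest adjusted p of 0.125, beside 1.23% of 649. The 2 comparisons with brain share the brain libraries.

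Most of these differences were between 2 maternal sides. Of 63 shared SNPs maternal in both brain and kidney 53 were lower in brain and 18 were called, all 18 lower. Of 57 maternal in both brain and lung 52 were lower in brain and 21 were called, 20 of them lower. The median share on the maternal side was 17.5% in brain, 22.9% in kidney and 23.9% in lung for shared SNPs, and 23.3%, 23.8% and 23.7% for other SNPs. On the paternal side it was 80.0%, 79.7% and 80.2% for shared SNPs. The brain libraries were the shallowest, at a median of 37 reads against 40 and 47.5, and with at least 30 reads per entry 21 of 60 shared SNPs were called between brain and kidney, beside 26.2% of 244 SNPs, and 32 of 64 between brain and lung, beside 41.1% of 258. Without the 5 libraries of fewer than 35 shared SNPs the counts were 22 of 77, beside 21.9% of 379, and 28 of 75, beside 26.8% of 418. In bulk tissue a difference in the share within a cell type and a difference in the cell types present cannot be told apart.

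COG3, a subunit of the Golgi tethering complex, was paternal in brain and maternal in kidney and lung. At its SNP on chromosome 10 (A15971000G) the paternal share was 90.7%, 72.1% and 70.7% in 3 brains, against 19.6%, 29.5% and 28.6% in 3 kidneys and 16.3% to 29.8% in 10 lungs. Each of the 3 brains had 20.5 or 21.5 reads, near the minimum for listing, and the kidneys had 21 to 25.5. The mean was 77.8% ± 11.2 (SD) in brain, against 25.9% ± 5.48 in kidney and 23.05% ± 4.83 in lung. Brain differed from kidney (adjusted p = 2.01e-05) and from lung (adjusted p = 3.50e-07, limma). The paternal base was the reference A, so among listed entries the G base was lower in brain than in the other tissues. COG3 is a target of A-to-I recoding in human and mouse, and whether this SNP is at the recoded base was not tested.

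MFF, which recruits the mitochondrial fission machinery, was maternal in every tissue and more so in brain. Its SNP on chromosome 2 (G228597035T) had a lowest paternal share of 1.28%, a median of 7.997% and a highest of 16.1% in 12 brains, against 18.2% and 29.3% in 2 kidneys and 21.3%, 25.4% and 29.6% in 14 lungs. Brain and lung did not overlap, with a difference of -1.34 ± 0.139 (SE, adjusted p = 6.33e-09, limma). UBE2D2, a ubiquitin-conjugating enzyme, was at 8.67% ± 5.27 (SD, n = 15) in brain, from 0% to 16.7%, against 21.2% ± 3.70 (n = 10) in kidney and 22.9% ± 4.17 (n = 11) in lung. Its difference was -1.18 ± 0.208 from kidney and -1.25 ± 0.201 from lung (SE, adjusted p = 4.35e-05 and 6.93e-06).

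TBCB, a tubulin-folding cofactor, RAB14, a small GTPase of endosomes, and PRRC2A, a large RNA-binding protein, also had their lowest mean share in brain. TBCB averaged 12.6% ± 5.06 (SD) over 15 brains, against 23.9% ± 3.43 over 11 kidneys and 23.8% ± 3.56 over 10 lungs. RAB14 averaged 11.2% ± 3.67 over 15 brains, against 22.6% ± 3.64 over 11 kidneys and 20.7% ± 5.25 over 14 lungs. PRRC2A has 2 SNPs among the named ones. The first averaged 11.5% ± 4.79 over 14 brains, against 18.8% ± 4.55 over 12 kidneys and 21.99% ± 4.31 over 14 lungs. The second averaged 15.3% ± 5.004 over 13 brains, against 24.3% ± 4.86 over 10 kidneys and 27.3% ± 2.38 over 7 lungs. For each of these SNPs the difference of brain from kidney and from lung had an adjusted p under 0.05, also with the fetus as a block. HNRNPU went the other way, with a brain share higher than that of lung by 0.43 ± 0.135 (SE, adjusted p = 0.0146).

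**Figure D4:**
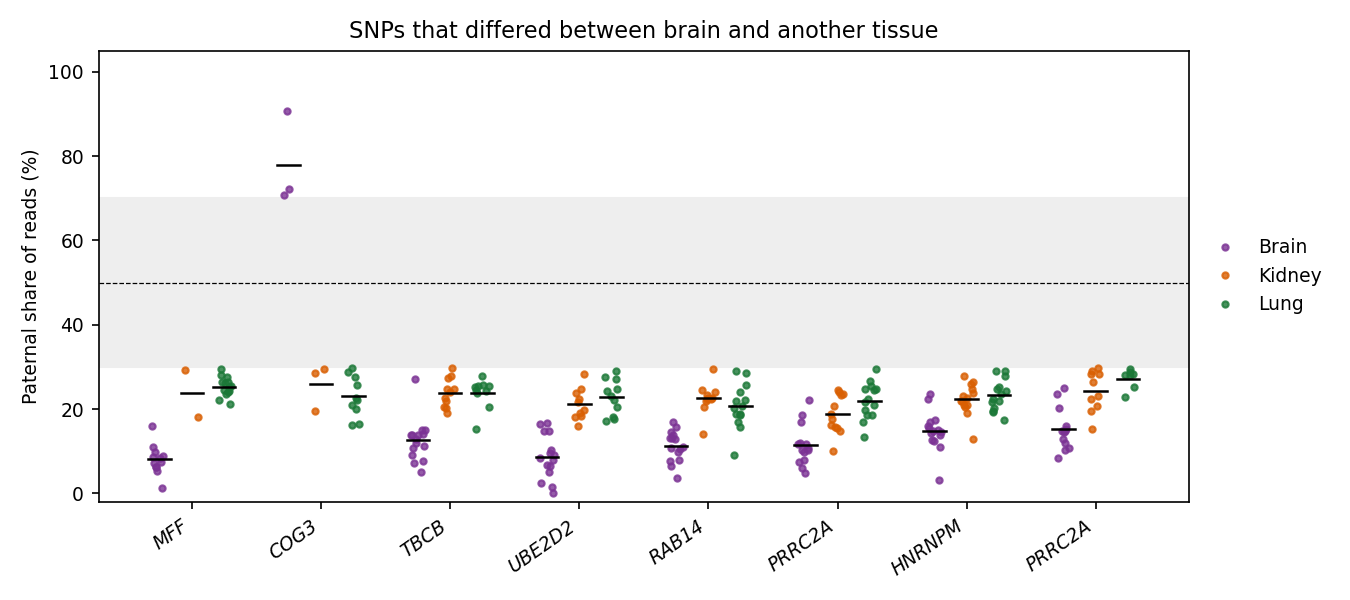
Paternal share of reads, in percent, at 8 of the 9 shared SNPs that were among the 6 with the smallest adjusted p in either comparison with brain, named by gene (PRRC2A has 2), in brain, kidney and lung. Points are fetuses and bars are means. COG3 has tissues on both sides of the grey band from 30% to 70%, in which no entry is listed, and the brain points of MFF lie below its lung points.

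LOC101105123 is 1 of the 10 SNPs with a paternal alternative base. At its SNP on chromosome 23 (G37727079A) the paternal share was 82.1% to 99.0% in 7 brains, against 71.9% to 83.3% in 6 kidneys. In lung it was 27.4% in 1 restricted fetus, against 72.6%, 72.6% and 76.1% in 3 control fetuses. The brain was higher than kidney by 1.75 ± 0.389 and than lung by 2.49 ± 0.429 (SE, adjusted p = 0.00349 and 0.000190, limma) and the lung figure includes the restricted fetus on the other side. This SNP was singled out after its values were seen.

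Of the gene lists examined, few held a shared SNP. None of 25 paternally and 32 maternally expressed imprinted genes did, although 9 and 25 of them had an informative SNP and 7 and 18 a listed SNP of any kind. Among 27 genes with known recoding by RNA editing, COG3, COPA and SON did, and among 7 editing enzymes and their partners ADAR did. ADAR was maternal in 3 brains, at 18.5%, 20.97% and 28.8%, and in 1 lung at 15.3%. Of the SON SNPs, the first is a G-to-A change at 75.5% ± 3.25 (n = 13) in lung, and the second a T-to-C change at 75.6% ± 3.71 (n = 7) in kidney. The COPA SNP with a T-to-C change was listed in 10 brains only, at 70.7% to 80.0%. The other, with a C-to-G change, averaged 10.7% ± 3.25 over 5 brains, 18.6% ± 7.16 over 8 kidneys and 22.3% ± 4.45 over 6 lungs. MAP2, a neuronal microtubule protein and the only brain marker with a shared SNP, was listed in 2 kidneys and 6 lungs and in no brain. None of 13 histocompatibility genes held a shared SNP. No share over all genes was set beside these counts, so whether any list departs from it was not tested.

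Diet was compared over ewes, with fetuses of 1 number averaged. In none of the 9 contrasts was a shared SNP called by limma, of 48 to 90 tested, beside a background of 0% in each, and 1 to 4 shared SNPs per contrast had an unadjusted p under 0.05. The smallest adjusted p for a shared SNP was 0.617. CLK1 and RBM5, whose SNPs were listed in every library, show the size of the spread. At CLK1 the brain shares were 8.61% to 21.02% in 4 restricted, 11.5% to 27.1% in 4 overfed and 13.9% to 28.8% in 7 control fetuses. The brain difference at CLK1 was -0.22 ± 0.268 (SE, adjusted p = 0.898) for restricted against control and 0.03 ± 0.278 (adjusted p = 0.962) for overfed against control, on the natural log scale. At RBM5 the largest of its lung contrasts was 0.37 ± 0.182 for overfed against restricted (adjusted p = 0.875), with shares of 14.7% to 23.1% in 4 overfed and 9.05% to 18.6% in 4 restricted fetuses. With 4 units per diet, differences of this size did not pass the test.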

How the data were processed

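Blood DNA of 4 rams and RNA of 45 fetal tissue samples had been sequenced. The deposited fetal lists hold estimated counts of maternal and paternal reads per SNP, averages that the authors took over alignments to a reference and an alternative genome, per the labels. The ram lists hold genotypes only. The submitters' processing notes name HISAT2 2.0.5, Trimmomatic 0.33, SAMtools and Picard without their roles. The genome build, the variant caller and how fetal genotypes were obtained are not given in the sources used here.

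Sequence names of the lists were read as chromosomes 1 to 26 and X. Symbols come from the lists, and 255 of the 277 genes matched RefSeq's gene table of assembly ARS-UI_Ramb_v3.0 by symbol, from which no coordinate was taken. Of them 251 were protein coding. The members are autosomal SNPs in the ram lists of all 15 fetuses with at least 1 fetal entry. The alternative-genome ram lists give the same 323. The members, gene lists and comparisons were chosen with earlier results of these data known.

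Entries with at least 10 reads were used, which removed none, since every entry has at least 20.5. The empirical logit added 0.5 read to each allele. limma 3.58.1 (R 4.3.3) gave a moderated two-sided test of each SNP, for all SNPs of the lists, with Benjamini-Hochberg adjustment over all SNPs tested and calls at an adjusted p under 0.05. Bias was tested in SNPs of at least 3 fetuses, tissues in 1 fit over 45 libraries, and diets over means of fetuses with the same number in their description, with at least 2 such units per diet. A SNP missing from a list was left out of that fit and not imputed. edgeR 4.0.16, a quasi-likelihood test on rounded counts, was an alternative for bias. The procedure was tested on simulated data, which were drawn without the filter on shares and so say nothing of its effect. Tissue and bias tests take littermates as separate animals.

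Libraries of the same diet and replicate number are tissues of 1 fetus, by their titles. Deviations from the SNP means of a tissue correlated between tissues of a fetus at a median r of 0.326 (-0.0364 to 0.716, over 0.1 in 39 of 45 pairs). The same fetus gave a higher r than every other fetus in only 12 of the 45 pairs, so the pairing rests on the titles. The fit with the fetus as a block is given where it changes a call or a count. The SNPs named are the 12 listed in most libraries, the 3 highest and the 3 lowest mean shares per tissue in at least 8 fetuses, up to 6 called per tissue contrast and up to 5 per diet contrast, SNPs of the gene lists, and SNPs with at least 3 fetuses on each side of a tissue, of which there were 0. That gave 30 SNPs of 27 genes, of which 27 SNPs of 24 genes are reported here. Counts of reads are not independent molecules, and no interval was made from them. Alternatives were other coverage minima, another added count, more fetuses, litter means, each ram or ewe left out, and, chosen after seeing the data, 1 SNP per gene or cluster and the omission of the 5 libraries with fewer than 35 members. The 2 X-linked SNPs heterozygous in all fetuses were not analysed here.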

Additional observations from a re-analysis of the deposited data

Results flagged for a closer look

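In 6 groups of fetuses 1 value lay far from the rest, among 102 groups checked, of which chance flags about 1 in 20. At RBM5 1 control brain had a paternal share of 17.02%, against at most 12.2% in the other 6 control brains, and 1 restricted kidney had 27.2%, against at most 16.99%. Both were the shallowest entries of their groups at this SNP. The brain had 23.5 reads, against a median of 65, and the kidney 40.5, against a median of 140. The part of depth in these values was not tested. At RAB24 1 control kidney had 25.6%, against at most 14.9%. At THRA 1 restricted lung had 89.5%, against at least 95.8%. It had 43 reads and was not the shallowest of its group, which reached down to 36. At the PRRC2A SNP at position 26708852, 1 overfed brain had 8%, against at least 10.4%. A control kidney listed 13 shared SNPs, against at least 76 in the other 6. It was also the shallowest library.

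Differences between tissues that passed the test at the named SNPs are given as brain minus kidney and brain minus lung on the natural log scale, from limma, with adjusted p. Both share the brain libraries. COG3 was on opposite sides in brain and in the other tissues, at 2.28 from kidney (2.01e-05) and 2.45 from lung (3.50e-07), from 3 brains near the minimum of reads. The filter on shares makes any difference between opposite sides wide. MFF differed by -1.34 from lung (6.33e-09). GSK3A differed by -1.51 from kidney (0.0233), from 11 brains and only 4 kidneys. Those kidneys had a median of 22.75 reads, also near the minimum. COPA differed by -0.82 from lung (0.0112), from 5 brains and 6 lungs.

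UBE2D2 differed by -1.18 from kidney (4.35e-05) and -1.25 from lung (6.93e-06). TBCB differed by -0.81 from kidney (6.40e-06) and -0.81 from lung (8.20e-06). RAB14 differed by -0.83 from kidney (9.72e-06) and -0.69 from lung (4.49e-05). HNRNPM differed by -0.51 from kidney (0.000744) and -0.56 from lung (0.000177). PRRC2A at position 26708852 differed by -0.57 from kidney (0.00234) and -0.78 from lung (1.59e-05), and at position 26711188 by -0.57 from kidney (0.000984) and -0.73 from lung (0.000182). THRA differed by -0.70 from kidney (0.0141) and -0.97 from lung (0.000177). LOC106991149 at position 113183258 differed by -0.84 from kidney (0.00719) and -0.77 from lung (0.00858). RBM5 differed by -0.29 from kidney (0.0164) and -0.26 from lung (0.0309). HNRNPU was higher in brain than in lung, by 0.43 (0.0146).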

How the results depend on the processing

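The set grew to 579 SNPs when heterozygosity in 14 fetuses sufficed, and was 323 from the alternative-genome lists. The other 2 counts that moved by over 1.5 times follow. With at least 6 fetuses 86 of 86 shared SNPs were called for bias in kidney, beside 97.6% of 294 SNPs, where fewer could be tested. With the fetus as a replicate block 14 of 74 differed between brain and kidney, beside 16% of 393 SNPs, while 2 of the 23 called without it could not be tested. With the block 19 of 71 differed between brain and lung (26.8%, beside 23.6% of 411 SNPs), 18 of them among the 27 called without it, and 0 between kidney and lung. For diet, fetus numbers do not pair animals, and the replicate block by number left 0 calls among the shared SNPs in each contrast, and 1 of 229 over all SNPs for restricted against control in lung. Leaving out each ram's fetuses in turn gave 90 of 90 to 113 of 113 calls for bias in brain, beside 98.4% of 368 and 95.1% of 657 SNPs. In kidney it gave 102 of 102 to 141 of 142, beside 97.8% of 445 and 93.6% of 787. In lung it gave 123 of 123 to 156 of 159, beside 96.1% of 736 and 93.9% of 1241. The lower counts thus came from fewer SNPs that could be tested. Leaving out each ewe gave 0 diet calls throughout. The maternal percentage of entries was 70.5% to 71.2% without each fetus, 72.3% with 1 SNP per gene and library, 72.8% with 1 member per cluster of neighbours and 70.96% without the 5 libraries of few shared SNPs. Among the named SNPs, 7 calls were lost under an alternative, 6 of them at RBM5 (adjusted p = 0.0559 to 0.0852 for brain against kidney and 0.0791 to 0.168 for brain against lung, with the block, litter means or 2 reads added to each allele) and 1 at THRA (brain against kidney, 0.0718 with 2 reads added), and no direction changed. The lists limit all of this: balanced entries are missing, so shares cannot be followed between 30% and 70%, and a SNP absent from a library may be balanced or shallow.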
